A study of Mus musculus with 60 samples.

Results

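Calf muscle of the Dmdmdx/Largemyd double mutant was compared with calf muscle of C57Bl/6 mice at 3 months of age. The comparison uses 10 of the 60 arrays of the series, 5 of the double mutant and 5 of C57Bl/6, chosen by the lineage and the age in their titles. All mice are labelled male and untreated, and each array measured 1 animal. C57Bl/6 is the normal control. The double mutant carries both Dmdmdx, labelled a model of Duchenne muscular dystrophy, and Largemyd, labelled a model of dystroglycanopathy. The single mutants Dmdmdx and Largemyd at 3 months, and the double mutant and C57Bl/6 at 21 days, are used below only to show where this comparison differs, with 5 arrays in each group. The double mutant and C57Bl/6 at 6 months, also with 5 arrays each, enter the figure of list medians by age. The sources used here do not say whether the lineages were littermates or shared a strain background, so lineage and background cannot be told apart.

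Dystrophin links the actin cytoskeleton of the muscle fibre to dystroglycan in the membrane, and the sugar chains of dystroglycan bind laminin in the basement membrane. Without either link the membrane tears during contraction, fibres die and are replaced from satellite cells, macrophages clear the debris, and fibroblasts lay down matrix. Dmdmdx removes full-length dystrophin, and Largemyd leaves dystroglycan with too little of the sugar that binds laminin. In whole muscle, fewer cells of a type and less RNA per cell cannot be told apart.

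Levels below are log2 expression values as the authors deposited them. Values after a gene name are log2 differences, double mutant minus C57Bl/6, ± standard error, with 5 arrays against 5 (limma, Benjamini-Hochberg adjusted p over 19938 genes). A gene is said to have risen or fallen only where its adjusted p was under 0.05. In this comparison 2913 genes rose (14.6% of those tested) and 3084 fell (15.5%). The median difference over all genes was -0.04. With array medians subtracted 2419 rose and 4139 fell, so the balance between rises and falls depends on the scaling. At least 2-fold changes were found for 484 of the genes that rose and 190 of those that fell. The fit was repeated without each of the 10 arrays in turn, without all arrays high in Xist, and without those high in other-tissue markers (both defined below). In all of these fits 4489 genes kept the call and its sign, and these are called stable below. In 3905 of them the 2 groups of arrays did not overlap.

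The fast fibre genes, which define the labelled tissue, averaged 13.17 to 13.24 in the C57Bl/6 arrays and 13.02 to 13.12 in the double mutant arrays. Markers of other tissue were uneven, and the marrow, erythroid and bone lists were higher in the controls. Tendon markers were higher in the double mutant (9.07 to 9.41 against 8.61 to 8.90), and skin markers overlapped. Marrow neutrophil markers averaged 8.02, 8.38, 10.97, 8.51 and 7.94 in C57Bl/6 replicates 1 to 5, against 6.60 to 6.85 in the double mutant. Erythroid markers averaged 7.10 to 9.64 against 6.27 to 6.44, and bone markers 6.40 to 7.40 against 5.82 to 5.94. C57Bl/6 replicate 3 was the highest in all 3 lists and also in lymph node markers, at 7.85 against 6.56 to 6.69 in the other C57Bl/6 arrays. C57Bl/6 replicate 5 had Xist, the RNA of the inactive X chromosome, at 10.60, against 4.90 to 5.28 in the other 9 arrays, which goes against its male label. No array of the double mutant stood apart in this way. List counts below are also given without C57Bl/6 replicates 3 and 5 where that moved a count by over 1.5 times and by more than 1 gene; that setting, chosen after seeing the data, also leaves out the other arrays of the series marked for the same reasons.

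**Figure D1:**
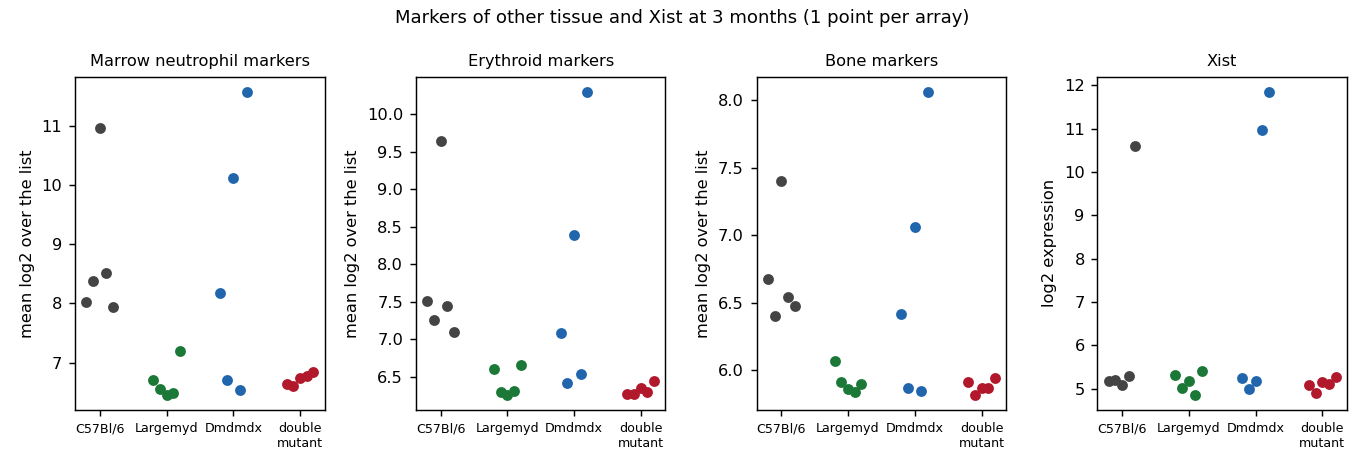
Mean log2 expression of the marrow neutrophil, erythroid and bone marker lists, and log2 expression of Xist, in the 4 lineages at 3 months, with 1 point per array. The double mutant arrays lie between 6.60 and 6.85 for the marrow list, below all 5 C57Bl/6 arrays, and 1 C57Bl/6 array stands at 10.60 for Xist.

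Dmd itself, which encodes dystrophin, checks only the Dmdmdx part of the double mutant label. Its level was 10.03, 9.63, 9.81, 9.41 and 9.76 in C57Bl/6 and 8.76, 8.87, 8.33, 8.48 and 8.74 in the double mutant. The groups did not overlap, and Dmd fell by 1.09 ± 0.18 on the log2 scale (adjusted p = 1.6e-06, limma). Utrn, the autosomal homologue that can stand in for dystrophin, was at 9.32 to 9.56 in C57Bl/6 and 9.42 to 9.57 in the double mutant (0.06 ± 0.07, adjusted p = 0.58, limma). Dag1, which encodes both dystroglycan subunits, was at 11 to 11.40 and 11.03 to 11.33 (0.02 ± 0.10, adjusted p = 0.94, limma), and its sign turned under 6 alternatives.

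Of 15 measured genes of the dystrophin-glycoprotein complex, 3 rose and 3 fell, with a median of -0.03 against -0.04 over all genes. Nos1, the neuronal nitric oxide synthase that dystrophin and the syntrophins hold at the membrane, changed most. It stood at 10.02, 9.97, 9.78, 9.89 and 10.39 in C57Bl/6 and 7.56, 7.60, 7.57, 7.48 and 7.90 in the double mutant. The gap between the groups was wider than the range within either, and Nos1 fell by 2.39 ± 0.21 (adjusted p = 3.8e-13, limma), the deepest fall of any member. Lama2, the laminin chain that dystroglycan binds, rose by 0.82 ± 0.14, and Sntb2, a syntrophin, by 0.78 ± 0.07. Among the sarcoglycans, named for their role after their values were seen, Sgca fell by 0.52 ± 0.17 and Sgce rose by 0.52 ± 0.09, while Sgcb (-0.03 ± 0.15) and Sgcd (-0.23 ± 0.19) did not pass the test. Of 13 measured enzymes that glycosylate dystroglycan 2 rose and 4 fell (median -0.10), led by B3galnt2, which adds a sugar of the laminin-binding chain (-0.78 ± 0.12), and Pomgnt2, which acts at the chain's base (-0.44 ± 0.09). Dpm2, a subunit of dolichol-phosphate-mannose synthase, rose by 0.38 ± 0.09.

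Leading rises and falls were taken from stable genes whose groups did not overlap. Predicted or unnamed genes and olfactory or vomeronasal receptors were left out. Among the rest the largest rise was that of Mmp12, the macrophage metalloelastase. It was at 6.58, 6.50, 5.90, 6.85 and 6.26 in C57Bl/6 and 10.51, 11.30, 10.98, 10.87 and 10.93 in the double mutant. Every double mutant array was more than 3 units above every control, and the difference was 4.50 ± 0.35, or 22.6-fold (adjusted p = 1.3e-14, limma). Ccl8, a chemokine for monocytes, rose from 5.85, 6.46, 7.06, 5.92 and 5.79 to 9.62, 10.04, 9.80, 10.09 and 9.26, or 11.7-fold. Gpnmb, a glycoprotein of lipid-laden macrophages, rose from 8.16, 7.73, 7.92, 8.42 and 7.85 to 11.14, 11.67, 11.58, 11.65 and 11.64, or 11.5-fold. That none of these genes overlapped between the groups was fixed by this choice, and the ranks hold only within it. The next were Myh3, the embryonic myosin heavy chain (3.44 ± 0.36), the macrophage membrane genes Ms4a7 (3.37 ± 0.24) and Ms4a6d (3.33 ± 0.28), C3ar1, the receptor for complement C3a (3.36 ± 0.26), Atp6v0d2, a proton pump subunit of osteoclasts and macrophages (3.29 ± 0.47), the protease Ctss (3.25 ± 0.29), Timp1, an inhibitor of metalloproteinases (3.21 ± 0.27), and Lgals3, galectin-3 (3.07 ± 0.26). Pcbd1, which recycles the biopterin cofactor and is the dimerisation cofactor of HNF1, rose from 7.24, 6.71, 7.01, 7.13 and 6.87 to 10.32, 10.41, 10.23, 10.04 and 10.12, or 9.37-fold. Its lack of overlap was fixed by the same choice.

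The largest falls under the same rule held marrow and fibre genes. Ngp, a granule protein of young neutrophils, went from 9.38, 10.56, 13.20, 10.26 and 9.97 in C57Bl/6 to 5.89, 5.52, 6.05, 5.55 and 6.27 (-4.82 ± 1.27). Ibsp of bone (-3.23 ± 0.91), Ltf of neutrophil granules (-2.96 ± 0.88) and Alas2 of red cell precursors (-2.0 ± 0.53) fell with it. Their controls also had the higher marrow, erythroid and bone list means given above, so these falls and the amount of other tissue in the control samples cannot be told apart. Ostn, which encodes the muscle-secreted peptide osteocrin, stood at 9.15, 9.36, 9.10, 8.92 and 9.93 in C57Bl/6 and 6.17, 6.20, 6.25, 5.93 and 6.27 in the double mutant. The groups lay more than 2 units apart, and Ostn fell 8.74-fold (-3.13 ± 0.26, adjusted p = 1.1e-13, limma).

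Other leading falls were genes of the fibre or of unrelated function. Mstn, myostatin, the fibre's own brake on growth, went from 10.70, 11.02, 10.12, 10.14 and 10.84 to 8.46, 8.92, 8.25, 8.09 and 8.37 (-2.14 ± 0.30). Pttg1, securin of the mitotic spindle checkpoint, went from 9.76, 9.76, 9.54, 9.77 and 9.67 to 7.38, 7.53, 7.76, 7.82 and 7.32 (-2.14 ± 0.13). For both genes the lack of overlap was fixed by the choice of leading falls. Padi2, which converts arginine to citrulline (-2.25 ± 0.19), Neto2, an accessory protein of kainate receptors (-2.06 ± 0.24), Hs3st5, a heparan sulphate sulphotransferase (-1.98 ± 0.18), and Slc38a3, a glutamine transporter (-1.88 ± 0.19), fell as well. Neto2 in C57Bl/6 replicate 5, the array with high Xist, was at 6.89, against 8.25 to 8.58 in the other controls and 6.01 to 6.13 in the double mutant.

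**Figure D2:**
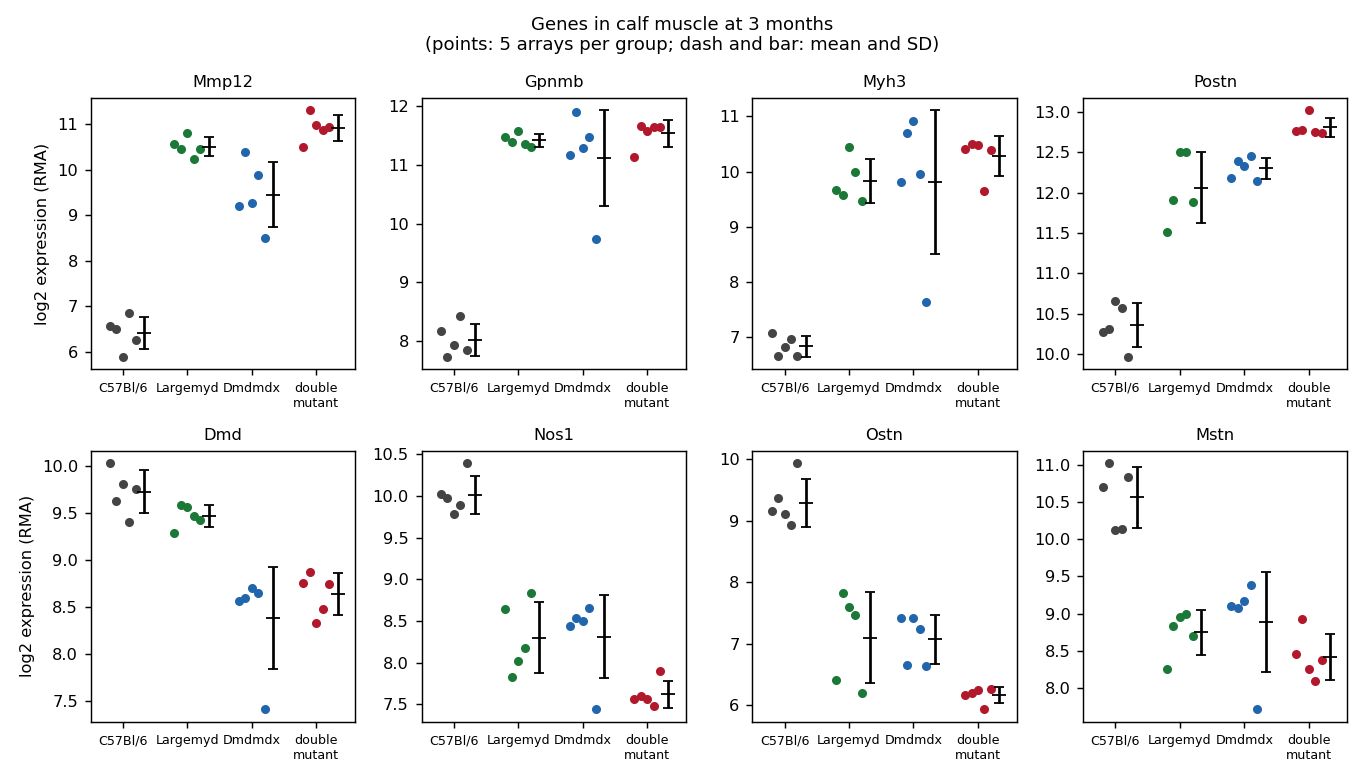
Log2 expression of 4 genes that rose (Mmp12, Gpnmb, Myh3, Postn) and 4 that fell (Dmd, Nos1, Ostn, Mstn) in the 4 lineages at 3 months; points are the 5 arrays of a group, and the dash and bar are their mean and SD. In every panel the double mutant and C57Bl/6 arrays occupy separate ranges, for example 10.51 to 11.30 against 5.90 to 6.85 for Mmp12. Except for Postn and Dmd, the choice of genes fixed this separation.

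Macrophage markers rose almost as a whole. Of 32 measured, 31 rose and none fell, with a median of 2.13. The list mean was 9.61 to 9.99 in the double mutant arrays against 7.43 to 8.32 in C57Bl/6. Cd68, the lysosomal marker of macrophages, went from 8.10, 8.63, 9.44, 9.10 and 8.08 to 11.09, 11.49, 11.58, 11.66 and 11.43 (2.78 ± 0.28), and Csf1r, the receptor that keeps macrophages alive, from 8.82, 9.06, 9.39, 9.43 and 9.0 to 10.71, 10.98, 11, 10.88 and 10.76 (1.73 ± 0.15). Both were named for their role after their values were seen, and in both every double mutant array was above every control. The 1 marker that did not pass was Cd163, the haemoglobin scavenger receptor of resident macrophages (0.35 ± 0.19, adjusted p = 0.18, limma).

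Signals that attract and prime such cells rose with them. Of 24 chemokines 14 rose and none fell (median 0.74). Ccl7 rose by 2.84 ± 0.39, Ccl3 by 2.68 ± 0.36 and Ccl2 by 2.45 ± 0.38, all ligands of receptors on monocytes and macrophages. Among 16 chemokine receptors and myeloid growth factors 5 rose and none fell (median 0.30), and 9 rose without the marked arrays. Csf2rb, the shared chain of the GM-CSF, interleukin-3 and interleukin-5 receptors, rose by 1.70 ± 0.28, Ccr3, the eotaxin receptor of eosinophils, by 1.38 ± 0.33, and Csf1, the ligand of Csf1r, by 0.59 ± 0.11.

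Of 19 complement genes 14 rose and 1 fell (median 1.04). The 3 chains of C1q, the recognition protein of the classical pathway, changed by nearly the same amount, with C1qa at 2.18 ± 0.17, C1qb at 2.19 ± 0.17 and C1qc at 2.22 ± 0.19. Of 12 antigen presentation genes 10 rose (median 0.64), led by Cd74, the class II invariant chain (1.93 ± 0.30), and the class II chains H2-Aa (1.86 ± 0.29), H2-Ab1 (1.77 ± 0.34) and H2-Eb1 (1.67 ± 0.28). T and NK cell markers did not move as a list. Only Ncr1 of 18 rose (0.46 ± 0.17), the median was 0.01, and the call for Ncr1 was lost under some alternatives. None of 12 B cell and lymph node markers passed the test, and 0 had an unadjusted p under 0.05 (limma; median -0.49); 2 rose and 1 fell without the marked arrays.

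Interferon-induced genes rose less. Of 21 measured 11 rose and none fell (median 0.48), 5 of them stable, and 8 rose without the marked arrays. Oasl2, an oligoadenylate synthetase-like protein, went from 8.62, 8.46, 8.94, 8.78 and 8.60 to 9.37, 9.34, 9.99, 9.48 and 9.96 (0.95 ± 0.29), and Rtp4 from 7.57, 7.57, 7.90, 7.82 and 7.79 to 8.56, 8.38, 9.02, 8.44 and 8.84 (0.92 ± 0.27). Both kept the groups apart by a small margin. The core of the interferon-stimulated response element, a pair of GAAA runs with any 2 bases between them, was searched on both strands in RefSeq promoters of 300 bases (GRCm38.p6). It was present in 9 of 17 promoters of the list (52.9%), which belong to 14 genes, and in 3.44% of all 32851 promoters. Of the 9 genes with it 4 rose, and of the 5 without it 2 rose. The promoters of Stat2, a transcription factor of the interferon response, and Ifit3, an interferon-induced RNA-binding protein, are shown because both genes rose and carry the element in the 250 bases before the start. Stat2 was named for this after its values were seen. Capitals mark the element, here on the opposite strand. Both lie on the plus strand, Stat2 at chr10:128270248-128270497 and Ifit3 at chr19:34583279-34583528.
Stat2: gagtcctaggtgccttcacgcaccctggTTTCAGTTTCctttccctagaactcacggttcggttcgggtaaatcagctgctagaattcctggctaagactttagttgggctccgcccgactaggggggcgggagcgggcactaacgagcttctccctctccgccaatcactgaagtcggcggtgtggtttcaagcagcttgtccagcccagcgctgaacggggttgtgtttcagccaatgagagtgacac
Ifit3: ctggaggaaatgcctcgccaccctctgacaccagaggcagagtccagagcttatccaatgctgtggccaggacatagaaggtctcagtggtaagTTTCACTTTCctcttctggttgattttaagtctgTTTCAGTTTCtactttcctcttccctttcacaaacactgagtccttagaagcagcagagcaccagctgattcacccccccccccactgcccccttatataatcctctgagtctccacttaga
Stat2 rose from 8.27, 8.14, 8.45, 8.17 and 8.03 to 8.55, 8.60, 8.95, 8.66 and 8.71 (0.48 ± 0.17, adjusted p = 0.021, limma). Ifit3 rose by 0.89 ± 0.35 (adjusted p = 0.046, limma), a call lost in 9 of the 10 removals of 1 array, and also with covariates, with medians subtracted, with a variance trend and without the high-Xist arrays. A match describes these letters and not the binding of a factor.

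Matrix genes rose across all of their lists. Of 14 interstitial collagens 11 rose and none fell (median 1.04). Col3a1, the fibrillar collagen of young scar, went from 10.11, 9.99, 9.58, 10.13 and 9.85 to 11.50, 11.58, 11.82, 11.84 and 11.46 (1.71 ± 0.17), with no overlap. Col8a1, a short-chain collagen of vessels and remodelling tissue, rose by 2.0 ± 0.20, Col14a1, which binds to fibril surfaces, by 1.79 ± 0.17, and Col6a3, a chain of the microfibrils around fibres, by 1.67 ± 0.18. Of 16 enzymes that process and cross-link collagen 13 rose and none fell (median 0.77), led by Lox (1.66 ± 0.15) and Loxl1 (1.31 ± 0.14), which cross-link collagen and elastin, and P4ha3, a prolyl hydroxylase (1.17 ± 0.28).

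Of 27 other matrix glycoproteins and proteoglycans 24 rose and none fell (median 0.72). Postn, periostin, which joins collagen to other matrix proteins, went from 10.27, 10.31, 10.66, 10.57 and 9.97 to 12.77, 12.78, 13.02, 12.75 and 12.74 (2.45 ± 0.22, 5.48-fold). The double mutant arrays lay close together and all above the controls. Mfap4, of elastic microfibrils, rose by 1.98 ± 0.26, Sfrp1, a secreted Wnt antagonist, by 1.65 ± 0.23 and Cthrc1 by 1.5 ± 0.28. Of 22 basement membrane and integrin genes 15 rose and 1 fell (median 0.53), led by Nid2, which bridges laminin and collagen IV (1.16 ± 0.13), Col15a1 (0.98 ± 0.19), the fibronectin receptor chain Itga5 (0.91 ± 0.13) and the laminin chain Lamb1 (0.90 ± 0.12).

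Proteases and their inhibitors both rose. Of 27 matrix proteases 22 rose and 1 fell (median 0.88; 3 fell without the marked arrays), including Mmp3, stromelysin, from 6.43, 6.27, 6.47, 6.73 and 6.61 to 9.63, 9.26, 9.10, 9.76 and 9.12 (2.87 ± 0.20), and Mmp19 (2.31 ± 0.18). Mmp9, a gelatinase also stored in neutrophil granules, did not pass (-1.28 ± 0.68), and its highest control was replicate 3, at 11.42. Of 12 protease inhibitors 7 rose and 1 fell (median 0.36). Serpina3n rose by 3.00 ± 0.34 and Serpinb1a, an inhibitor of neutrophil elastase, by 2.01 ± 0.28, whereas Timp4, a metalloproteinase inhibitor abundant in muscle, fell from 10.53, 10.45, 10.35, 10.26 and 10.39 to 9.18, 8.97, 9.0, 8.13 and 8.80 (-1.58 ± 0.30). Timp1 and Timp4 thus moved in opposite directions. Timp4 did not overlap between the groups, and for Timp1 this was fixed by the choice of leading genes.

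The TGF-beta and myostatin family, which drives matrix production and limits fibre growth, was mixed, with 11 of 32 genes higher and 8 lower (median 0.12). Fstl1, a secreted follistatin-like protein, rose by 1.16 ± 0.16, Tgfb1, the ligand that activates fibroblasts, by 1.12 ± 0.20, and Tgfbi, a matrix protein named for its induction by that ligand, by 1.09 ± 0.11, while Mstn fell as given above. Of 19 markers of fibro-adipogenic progenitors and fibroblasts 13 rose and 1 fell (median 0.45; 8 rose with marker means and Xist as covariates), among them Mfap5 (1.10 ± 0.15), Dpt (0.96 ± 0.15), Pdgfra, the receptor used to sort these progenitors (0.96 ± 0.11), and Fap (0.92 ± 0.16). Of 8 tendon markers 3 rose, led by Thbs4 (1.74 ± 0.15), which injured fibres also make.

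Genes of new fibres rose, and those of the satellite cell pool moved little. Of 22 genes of embryonic and regenerating fibres 12 rose and 1 fell (median 0.84; 3 fell without the marked arrays). Myh3 went from 7.09, 6.67, 6.82, 6.98 and 6.66 to 10.41, 10.49, 10.48, 9.64 and 10.39, with double mutant replicate 4 the lowest of its group and still far above the controls. Tnnt2, the troponin T of heart and embryonic muscle, rose by 2.88 ± 0.30, Ankrd1, a stretch-responsive repeat protein, by 2.68 ± 0.25, and Myl4, the embryonic myosin light chain, by 2.39 ± 0.15. Of 23 satellite cell and myogenic regulators 7 rose and 2 fell (median 0.08). Those that rose most act late in the sequence: Mymk, the fusion protein myomaker, went from 7.40, 7.76, 7.08, 7.65 and 7.43 to 10.27, 10.19, 10.28, 9.40 and 10.41 (2.65 ± 0.33), and Myog, the factor of terminal differentiation, rose by 1.85 ± 0.27. The early factor Myf5 rose by 1.08 ± 0.18, and Mymx, myomaker's partner, by 0.83 ± 0.16. Pax7, which marks satellite cells, differed by 0.28 ± 0.11 (adjusted p = 0.041, limma). It was named after its values were seen, and its call was not stable. Myod1 did not pass (0.43 ± 0.23).

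Of 30 cell cycle genes 2 rose, Ccnd1, cyclin D1 (1.08 ± 0.17), and Pcna, the replication clamp (0.55 ± 0.21), and none fell (median 0.35). C57Bl/6 replicate 3, the array highest in marrow markers, had the highest list mean, 9.06, against a lowest of 7.38 among the controls and 7.97 to 8.45 in the double mutant. Without the marked arrays 15 of the 30 rose and 1 fell. Without C57Bl/6 replicate 3 alone 10 rose (median 0.64), without the arrays high in other tissue 22 rose (median 0.64), and with marker means and Xist as covariates 25 rose (median 0.92), with none lower in these settings.

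How many contractile genes of adult fibres passed the test depended on the setting. Of 15 fast fibre genes none rose and 1 fell (median -0.11), Myh2, the myosin of type 2A fibres, from 12.72, 12.31, 12.82, 13.13 and 12.69 to 12.19, 12.04, 11.86, 11.81 and 11.69 (-0.82 ± 0.21); 4 fell without the marked arrays, 5 with array medians subtracted, 8 without the arrays high in other tissue (median -0.11) and 12 with marker means and Xist as covariates (median -0.27). Myh4, the fastest myosin, did not pass (-0.15 ± 0.09). Of 14 slow fibre genes 2 rose and 1 fell (median -0.08), with Casq2, the calcium buffer of slow fibres and heart, at 1.12 ± 0.26, Tpm3, a slow tropomyosin, at 0.75 ± 0.12 and Mb, myoglobin, at -0.68 ± 0.18. Myh7, the slow myosin, did not pass (-0.03 ± 0.42) and ranged from 10.41 to 11.48 in C57Bl/6 and from 10.19 to 11.55 in the double mutant.

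Of 23 genes of excitation-contraction coupling and membrane channels 11 fell and none rose (median -0.30), and 19 fell with marker means and Xist as covariates (median -0.60). Clcn1, the chloride channel that sets the resting membrane, fell by 1.08 ± 0.22, and the potassium channel genes Kcnc1 by 1.04 ± 0.18 and Kcnj11 by 0.87 ± 0.14. Kcnma1, a calcium-activated potassium channel, fell by 1.18 ± 0.13, but with the mean of its probe sets the value was -0.54 and the call was lost (adjusted p = 0.29, limma). Of 19 genes of the neuromuscular junction and denervation 5 rose and 3 fell (median -0.02; 5 fell without the marked arrays). Runx1, a transcription factor induced by denervation, rose by 1.64 ± 0.17 and the acetylcholine receptor chains Chrnd by 0.83 ± 0.19 and Chrnb1 by 0.64 ± 0.19, while Sema6c fell by 0.74 ± 0.18. Of 19 membrane repair proteins 13 rose and 1 fell (median 0.77), led by S100a4 (1.95 ± 0.18), the ferlin Myof (1.74 ± 0.18) and the annexins Anxa4 (1.54 ± 0.13) and Anxa1 (1.38 ± 0.24), the last also a gene of white blood cells. Dysf, the ferlin of mature fibres, did not pass (0.07 ± 0.15).

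Energy metabolism fell across 5 lists with no gene higher in any of them. The changes were small and wide. Of 69 oxidative phosphorylation subunits 43 fell (median -0.34), of 24 genes of pyruvate dehydrogenase and the tricarboxylic acid cycle 21 (median -0.42), of 22 genes of branched-chain and linked amino acid metabolism 21 (median -0.60), of 28 genes of fatty acid uptake and oxidation 22 (median -0.52), and of 25 genes of glycolysis and glycogen 17 (median -0.64). With marker means and Xist as covariates all 69 oxidative phosphorylation subunits fell (median -0.54). Cox6a2, the muscle form of a cytochrome oxidase subunit, fell by 0.74 ± 0.15, Ndufs6 of complex I by 0.68 ± 0.15, and Pcx, pyruvate carboxylase, by 1.20 ± 0.23. Gpt2, which makes alanine, fell by 1.16 ± 0.20, and Bckdhb, a subunit of the branched-chain dehydrogenase, by 1.03 ± 0.18.

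The members of the fatty acid list with the largest falls were regulators. Ppara, the nuclear receptor for fatty acids, went from 8.70, 8.44, 8.76, 9.0 and 8.79 to 7.61, 7.41, 7.17, 7.22 and 7.41 (-1.37 ± 0.19), and Ppargc1a, the coactivator of mitochondrial genes, from 10.35, 10.08, 10.08, 9.85 and 9.69 to 8.88, 8.71, 8.72, 8.28 and 8.85 (-1.32 ± 0.33). Neither overlapped between groups. Esrrg, an orphan receptor of oxidative fibres, fell by 0.91 ± 0.17. For glucose, Slc2a4, the insulin-responsive transporter GLUT4, fell by 1.35 ± 0.18, Hk2, the hexokinase that acts next, changed by -1.21 ± 0.15, and Ppp1r3c, which brings a phosphatase to glycogen, by -1.41 ± 0.28. The letters TNAAGGTCA, the binding motif of Esrrg and its relatives, were found on either strand in 2 of 62 RefSeq promoters of the oxidative phosphorylation list (3.23%), in 0 of 31, 0 of 29 and 0 of 23 of the tricarboxylic acid, fatty acid and amino acid lists, and in 1.28% of all promoters. Macrophages are known for another motif, GAGGAAGT, bound by PU.1, which stood in 1 of 28 promoters of the macrophage list (3.57%) and in 3.2% of all.

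Vessel genes fell in part. Of 20 endothelial markers 6 fell and none rose (median -0.17), and 9 fell with array medians subtracted. Flt1 (-0.75 ± 0.12) and Kdr (-0.59 ± 0.16), both receptors for vascular endothelial growth factor, Aqp1 (-0.63 ± 0.11) and Ptprb (-0.59 ± 0.12) were among them. Their ligand Vegfa stood at 10.82, 10.76, 10.84, 10.93 and 10.80 in C57Bl/6 and 9.66, 9.49, 9.77, 9.62 and 9.72 in the double mutant. The groups lay about 1 unit apart, each within a narrow range, and Vegfa fell by 1.18 ± 0.11. Of 13 smooth muscle and pericyte markers 2 rose and 6 fell (median -0.29): Acta2, smooth muscle actin, which myofibroblasts also make, rose by 0.71 ± 0.14 and Pdgfrb by 0.50 ± 0.09, while the smooth muscle myosin Myh11 fell by 0.59 ± 0.12 and Abcc9 by 0.70 ± 0.13.

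Growth factors split by gene. Of 27 other growth factors and cytokines 3 rose and 7 fell (median -0.11). Hgf, which wakes satellite cells, rose by 1.66 ± 0.14 and Pdgfc by 0.97 ± 0.11, and Fgf6, a growth factor made by muscle, fell by 1.02 ± 0.19. In the insulin-like growth factor system 4 of 16 rose and 4 fell (median -0.12). The ligand Igf1 went from 9.64, 9.89, 9.99, 9.50 and 9.42 to 10.87, 10.94, 11.09, 11.10 and 10.83 (1.28 ± 0.13) and the binding protein Igfbp4 rose by 0.89 ± 0.11, whereas the receptor Insr fell by 0.65 ± 0.13 and the adaptor Irs2 by 0.82 ± 0.16. Of 12 genes in the list of secreted fibre products 2 rose and 4 fell (median -0.34). Angptl4, an inhibitor of lipoprotein lipase, was at 1.59 ± 0.26 and Lgi1 at -1.60 ± 0.38. Mss51, which is on the list without being known as secreted, was at -1.56 ± 0.33.

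Of 24 atrophy and autophagy genes 3 rose and 8 fell (median -0.19). The metallothioneins Mt2, which went from 10.34, 10.37, 10.77, 10.86 and 10.55 to 12.90, 12.97, 13.01, 13.29 and 13.06 (2.47 ± 0.24), and Mt1 (1.83 ± 0.26) bind zinc and rise with glucocorticoids and wasting. The ubiquitin ligase of wasting, Fbxo32, or atrogin-1, went the other way, from 11.24, 10.97, 10.93, 10.67 and 11.14 to 9.93, 9.93, 9.48, 9.40 and 9.82 (-1.28 ± 0.42), and Fbxo31 fell by 1.48 ± 0.26. Trim63, MuRF1, was lower without passing the test (-0.84 ± 0.38, adjusted p = 0.090, limma). In each of these genes the 2 groups of arrays were apart.

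Among 22 genes of the stress and unfolded protein response 10 rose and 4 fell (median -0.02), with Sdf2l1 (1.00 ± 0.16), Pdia4 (0.82 ± 0.14) and Pdia6 (0.72 ± 0.14) of the endoplasmic reticulum among those that rose. Of 21 genes of iron handling and antioxidants 7 rose and 6 fell (median 0.03). Cybb (1.77 ± 0.38) and Cyba (1.69 ± 0.25), the membrane subunits of the phagocyte oxidase, Nox4 (1.27 ± 0.18) and Ftl1, ferritin light chain (1.26 ± 0.15), rose. Cybb in C57Bl/6 replicate 3 was at 11.38, inside the double mutant range of 11.19 to 11.45, while the other controls were at 8.75 to 9.48. Of 17 circadian clock genes none rose and 4 fell (median -0.36), led by Arntl (-0.91 ± 0.31) and Rora (-0.63 ± 0.17); Arntl was highest in C57Bl/6 replicate 1, at 9.50, and lost its call without that array (-0.67, adjusted p = 0.11, limma). The labels do not give the time of day of dissection.

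Markers of skin, cartilage, fat and Schwann cells passed in few cases, and those of marrow, blood and bone were often lower. None of 11 skin epidermis markers (median 0.12; 0 higher and 1 lower at an unadjusted p under 0.05, limma) and none of 10 cartilage markers (median -0.18; 0 and 2; 3 fell without the marked arrays) passed. Of 15 adipocyte markers 1 rose, Cebpa (0.80 ± 0.18), which macrophages also express, and 2 fell, Pnpla2 (-0.62 ± 0.19) and Plin4 (-0.61 ± 0.20). Of 11 Schwann cell and myelin markers 1 rose, Egr2 (1.00 ± 0.11), also a gene of macrophages. In the marrow list 6 of 13 fell (median -1.97) and 12 fell without the marked arrays; in the erythroid list 5 of 10 fell (median -1.31) and 10 without those arrays; in the bone list 3 of 8 fell (median -0.57) and 5 without them. Without C57Bl/6 replicate 3 alone, the array highest in these lists, 2 marrow (median -1.40), 1 erythroid (median -0.85) and 2 bone markers (median -0.39) fell.

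**Figure D3:**
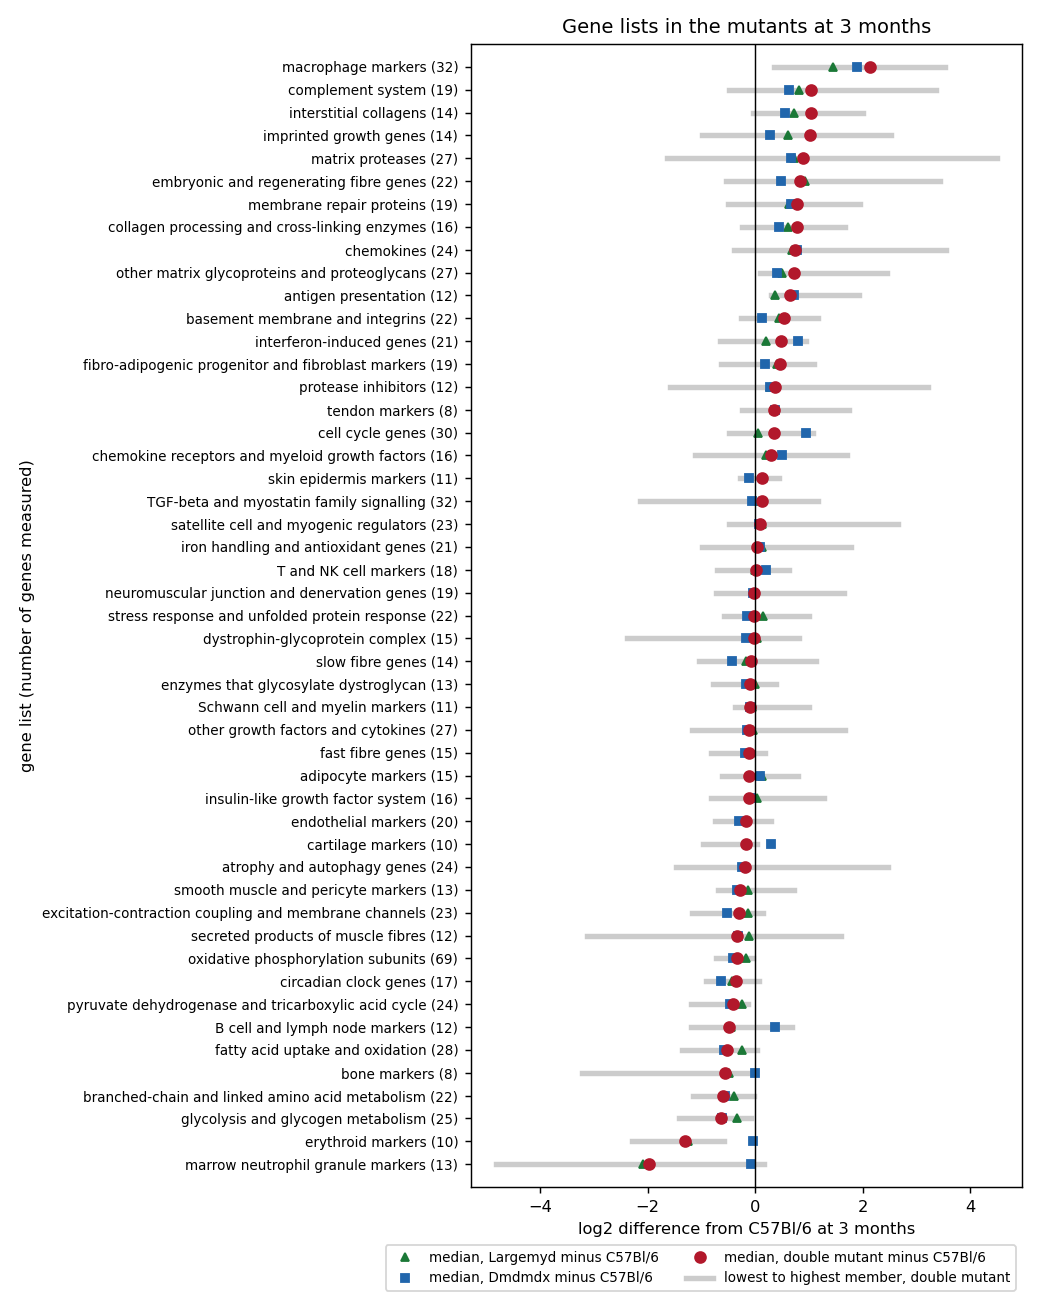
Median log2 difference from C57Bl/6 at 3 months for each gene list in the double mutant (circles), Dmdmdx (squares) and Largemyd (triangles), with a grey bar from the lowest to the highest member in the double mutant. All 3 mutants share the same C57Bl/6 arrays; in the double mutant macrophage markers lie highest (2.13) and marrow neutrophil markers lowest (-1.97).

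Imprinted growth genes, expressed from 1 parental allele and mostly silenced after birth, rose in most cases. Of 14 measured 12 rose and 1 fell (median 1.01). Mest went from 7.98, 7.92, 7.58, 8.01 and 7.80 to 10.30, 10.29, 10.95, 10.14 and 10.22 (2.52 ± 0.35), and Igf2, the fetal growth factor that regenerating fibres also make, from 9.47, 10.05, 9.03, 9.22 and 9.70 to 11.92, 11.83, 11.92, 11.47 and 12 (2.33 ± 0.21). Both groups of arrays were far apart in each gene. Peg3 rose by 1.88 ± 0.17 and Plagl1, a zinc finger factor that regulates other imprinted genes, by 1.41 ± 0.20.

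Within that list Dlk1 belongs to an imprinted region of chromosome 12 that runs from Dlk1 to Dio3 and holds a long cluster of noncoding RNAs, and the whole region was looked at after these values were seen. It has 47 measured genes, 40 of them miRNA genes, whose probe sets read the precursor and not the mature miRNA. At 3 months 9 of the 47 rose, where 14.6% of all genes rose, and none fell, with a median of 0.10. Over all 297 miRNA genes tested 9 rose and 13 fell, with a median of -0.01. The region was chosen for its values, so the counts are a description. The mature miRNAs of the 4 miRNA genes of the region that rose are shown to identify them, from RefSeq (GRCm38.p6), 5′ to 3′, with the seed, bases 2 to 8, in capitals. All lie on the plus strand of chromosome 12, and no seed is shared among them.
mmu-miR-323-5p, chr12:109712523-109712544: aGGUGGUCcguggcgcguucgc
mmu-miR-323-3p, chr12:109712558-109712578: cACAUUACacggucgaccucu
mmu-miR-382-5p, chr12:109733781-109733802: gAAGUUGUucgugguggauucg
mmu-miR-382-3p, chr12:109733819-109733840: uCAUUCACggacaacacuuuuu
mmu-miR-134-5p, chr12:109734145-109734166: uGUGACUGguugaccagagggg
mmu-miR-134-3p, chr12:109734184-109734203: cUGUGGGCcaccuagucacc
mmu-miR-377-5p, chr12:109740515-109740536: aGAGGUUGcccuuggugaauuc
mmu-miR-377-3p, chr12:109740553-109740574: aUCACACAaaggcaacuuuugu

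Dlk1, a membrane inhibitor of Notch that is expressed in fetal muscle, was at 8.21, 8.87, 7.83, 8.16 and 8.43 in C57Bl/6 and 9.30, 9.02, 9.89, 8.99 and 9.32 in the double mutant (1.00 ± 0.18). Meg3, the maternally expressed noncoding RNA beside it, was at 8.80, 9.11, 8.51, 9.17 and 8.66 against 9.68, 9.98, 10.17, 10.04 and 9.83 (1.09 ± 0.20). Rian, the noncoding RNA further along, was at 5.48, 5.53, 4.99, 5.40 and 5.14 against 5.89, 5.92, 6.13, 5.98 and 6.00 (0.68 ± 0.20). Each of these kept the groups apart, by the least for Dlk1, whose highest control was 8.87 and lowest double mutant array 8.99. Mir377 rose from 4.61, 4.82, 4.77, 4.85 and 4.92 to 5.58, 5.90, 6.12, 5.63 and 5.52 (0.95 ± 0.20), Mir323 from 5.64, 5.80, 5.01, 5.92 and 5.81 to 6.42, 6.32, 6.71, 6.50 and 6.50 (0.85 ± 0.20), and Mir382 from 5.06, 4.64, 4.74, 5.18 and 4.81 to 5.41, 6.01, 6.01, 5.45 and 5.41 (0.77 ± 0.19). Mir134 overlapped between the groups (0.38 ± 0.14, adjusted p = 0.036, limma). Dio3, which inactivates thyroid hormone at the far end of the region, rose by 0.70 ± 0.16. C57Bl/6 replicate 3 had the lowest value of its group for Dlk1, Meg3, Rian, Mir323, Mir134 and Dio3.

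The single mutants, set against the same C57Bl/6 arrays, had 0 of the 47 genes higher in Dmdmdx (median -0.04; 0 also at an unadjusted p under 0.05, limma) and 3 in Largemyd (median 0.08), where 12.3% and 10.6% of all genes were higher. Tested directly, the double mutant was above Dmdmdx for 4 genes of the region (against 1.69% of all genes) and above Largemyd for 1 (against 0.366%). Mir382 and 1 small nucleolar RNA of those 4 lost the call without Dmdmdx replicate 5, and without the marked arrays Meg3 alone kept it. Meg3 was higher than in Dmdmdx by 1.24 ± 0.20 (adjusted p = 8.4e-05, limma) under all 20 alternatives, and higher than in Largemyd by 0.77 ± 0.20 (adjusted p = 0.034, limma), a call lost under 8 alternatives. Dlk1 was higher than in Dmdmdx by 1.06 ± 0.18, a call lost without the marked arrays (0.97, adjusted p = 0.12, limma). It was not shown to differ from Largemyd (0.26 ± 0.18, adjusted p = 0.65, limma). At 21 days 42 of the 47 genes rose in the double mutant against C57Bl/6 of that age, where 15.4% of all genes rose, and none fell (median 0.64).

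**Figure D4:**
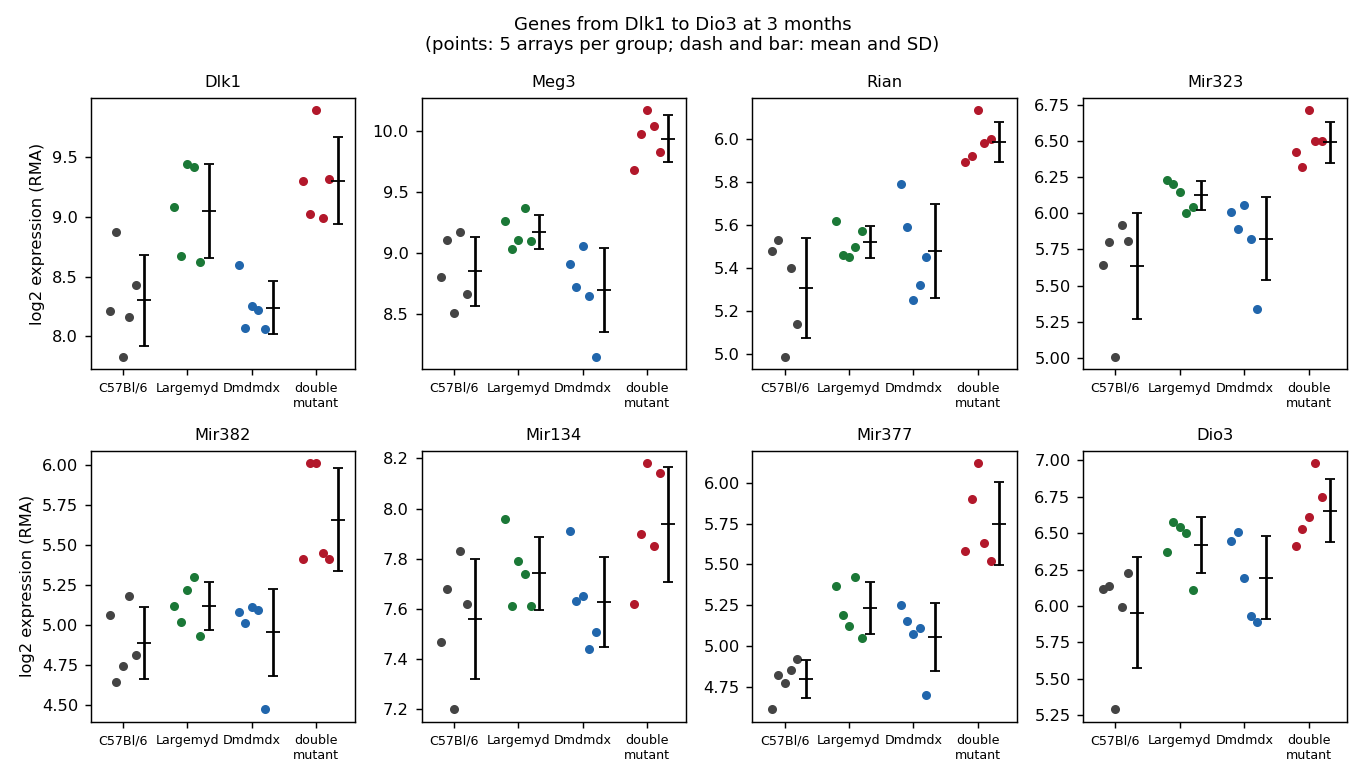
Log2 expression of Dlk1, Meg3, Rian, 4 miRNA genes and Dio3 in the 4 lineages at 3 months; points are the 5 arrays of a group, and the dash and bar are their mean and SD. Meg3 in the double mutant, 9.68 to 10.17, lies above every array of the other lineages.

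The double mutant was next set against each single mutant of the same age, to show which differences from C57Bl/6 exceed those of a single mutation. Against Dmdmdx 337 genes were higher (1.69%) and 65 lower (0.326%), and the median over all genes was 0.01. Dmdmdx replicates 3 and 5 stood high in marrow markers (10.12 and 11.57) and replicates 4 and 5 in Xist (10.98 and 11.84). Without the marked arrays of the series, which leaves 2 Dmdmdx arrays, 59 genes were higher and 23 lower. Matrix lists led the higher genes: 10 of 22 basement membrane and integrin genes and 8 of 14 interstitial collagens were above Dmdmdx, and 2 and 1 of them without the marked arrays. The list medians were 0.30 and 0.44 with all arrays and 0.24 and 0.54 without the marked ones. Nid2 (0.86 ± 0.13), Lamb1 (0.68 ± 0.12), Col6a3 (1.11 ± 0.18) and Cilp, a matrix protein of cartilage and scar (1.28 ± 0.21), were higher under all 20 alternatives. Pianp, a ligand of an inhibitory receptor of immune cells (1.29 ± 0.15), and Igfbp4 (0.53 ± 0.11) were too. Mmp12 (1.46 ± 0.35, lost under 6) and Vsig4, a complement receptor of macrophages (1.52 ± 0.32, lost under 1), were less firm. Among the genes lower than in Dmdmdx, Alas2 (-1.91 ± 0.53), Rsad2 (-1.44 ± 0.38), Cyp4f18 (-1.32 ± 0.37), Klra2 (-1.21 ± 0.29) and Prg3 (-1.02 ± 0.26) each lost the call under 5 or more of their alternatives.

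Against Largemyd 73 genes were higher (0.366%) and 154 lower (0.772%), with a median of -0.03. No Largemyd array at 3 months was marked, but leaving out the marked arrays of other groups, which changes the shared estimate of the spread, gave 158 higher and 367 lower. The matrix lists above Dmdmdx were not above Largemyd. Of 22 basement membrane and integrin genes 0 passed in either direction (median 0.09). Of 14 interstitial collagens 0 passed (median 0.30), and 1 was higher without the marked arrays. Largemyd itself had 14 and 10 of these genes above C57Bl/6, where 10.6% of all genes were higher. Dmd was lower than in Largemyd by 0.83 ± 0.18 and Sntb2 higher by 0.38 ± 0.07, both under all 20 alternatives, and Tgfbi was higher by 0.61 ± 0.11. Pttg1 was lower by 1.66 ± 0.13. It fell by 2.14 in the double mutant, 1.70 in Dmdmdx and 0.48 in Largemyd, each against the same C57Bl/6 arrays. Ppp1r3c was lower than in Largemyd by 1.23 ± 0.28 and Ublcp1, a proteasome phosphatase, by 1.28 ± 0.19. Klk1b22, a kallikrein, was lower by 3.26 ± 0.46; Largemyd was 3.05 above C57Bl/6, and the double mutant did not pass against C57Bl/6 (-0.21 ± 0.46). Nxpe4 (1.56 ± 0.18) and Lrmda (1.49 ± 0.14) were higher, and the differences of Largemyd from C57Bl/6 were -1.72 and -1.17. Sh2d1b1 (1.36 ± 0.25), an adaptor of NK cells, and Lyz1, a lysozyme (1.19 ± 0.24), were higher under every alternative in which they were fitted.

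Snord53, a small nucleolar RNA that guides ribosomal RNA methylation, was the named gene highest above both single mutants under all 20 alternatives of each comparison. It was at 9.18, 8.99, 9.15, 8.70 and 9.24 in C57Bl/6 and 10.97, 11.29, 11.10, 11.44 and 11.04 in the double mutant (2.12 ± 0.28). The groups did not overlap. Dmdmdx (0.27 ± 0.28) and Largemyd (0.15 ± 0.28) did not pass against C57Bl/6, and the double mutant exceeded them by 1.84 ± 0.28 and 1.96 ± 0.28. Another, Snord73b, was 1.67 ± 0.34 above Largemyd and overlapped C57Bl/6 (0.89 ± 0.34).

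For both H2-Ea and Akr1e1 the double mutant arrays split into high and low. H2-Ea, a class II histocompatibility chain, was at 11.78, 12, 6.02, 6.22 and 11.78 in double mutant replicates 1 to 5. It was at 5.89 to 6.31 in C57Bl/6, 5.85 to 6.35 in Dmdmdx and 11.34 to 12.28 in Largemyd. Double mutant replicates 3 and 4 were thus at the level of C57Bl/6 and Dmdmdx, and replicates 1, 2 and 5 at that of Largemyd. The mean difference from C57Bl/6, 3.55 ± 0.89, describes no single animal. Akr1e1, an aldo-keto reductase, was at 4.88, 7.40, 7.34, 7.17 and 4.73 in the double mutant, 4.79 to 5.25 in C57Bl/6, 7.53 to 8.34 in Dmdmdx and 7.52 to 8.14 in Largemyd. Here replicates 1 and 5 were low and replicates 2, 3 and 4 high, so the 2 genes divided the 5 animals differently.

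At 21 days, about the age of weaning, the same lineages did not show the rise of the basement membrane, collagen and fibroblast lists seen at 3 months. Of the basement membrane and integrin genes 1 rose and 11 fell at 21 days, of the interstitial collagens 1 rose and 2 fell, and of the fibro-adipogenic progenitor and fibroblast markers 5 rose and 7 fell. Over all genes 15.4% rose at 21 days, with a median of 0.02. The share of all genes that fell then was not counted, so the counts of falls are a description only. Skin epidermis markers moved with age too, with 8 of 11 higher in the double mutant at 21 days (median 1.05) and none at 3 months (median 0.12), and their part in the list medians was not tested. The difference at 3 months minus that at 21 days was positive for 1950 genes (9.78%) and negative for 1136 (5.7%), with a median of -0.04. Each difference was taken within its age, because the arrays of each age have their own level. Of 22 basement membrane and integrin genes 17 had the higher difference at 3 months, and the list median went from -0.24 at 21 days to 0.53. Of 14 interstitial collagens 11 did, with medians of -0.02 and 1.04, and of 19 fibro-adipogenic progenitor and fibroblast markers 12, with -0.21 and 0.45. Of 20 endothelial markers 12 did, from -0.66 to -0.17. Lower differences at 3 months were found for 9 of 22 genes of branched-chain and linked amino acid metabolism (medians -0.35 and -0.60), 6 of 24 atrophy and autophagy genes (0.16 and -0.19) and 7 of 13 marrow neutrophil markers (1.12 and -1.97).

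Macrophage markers were high at both ages, with medians of 1.48 at 21 days and 2.13 at 3 months, and 8 of 32 had the higher difference at 3 months and 2 the lower. Mmp12 differed from C57Bl/6 by 1.69 at 21 days and 4.50 at 3 months, 2.81 ± 0.50 more. Fcrls, an Fc receptor-like gene of macrophages, gained 2.60 ± 0.40, Mfap4 gained 2.44 ± 0.37, and Aplnr, the apelin receptor of endothelium, went from -1.81 to 0.96. Tnmd, of tendon, went from -1.55 to 0.92, and Pmp2, a myelin protein, from -2.92 to -0.38. All 6 kept their call under all 30 alternatives. Nos1 differed by -0.20 ± 0.21 at 21 days and did not pass then, and Fbxo32 rose at 21 days (1.32 ± 0.42) and fell at 3 months. The 6 deepest losses were Ngp (-6.74 ± 1.79), Lcn2 (-6.04 ± 1.18), S100a8 (-5.00 ± 1.43), Chil3 (-4.75 ± 1.17), Ibsp (-4.63 ± 1.29) and Mmp8 (-4.54 ± 1.27), genes of marrow, neutrophils and bone. Without the marked arrays all 6 kept their call, for example Ngp at -5.81 (adjusted p = 0.00066, limma). With marker means and Xist as covariates, which include the marrow markers themselves, Lcn2 alone kept it.

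**Figure D5:**
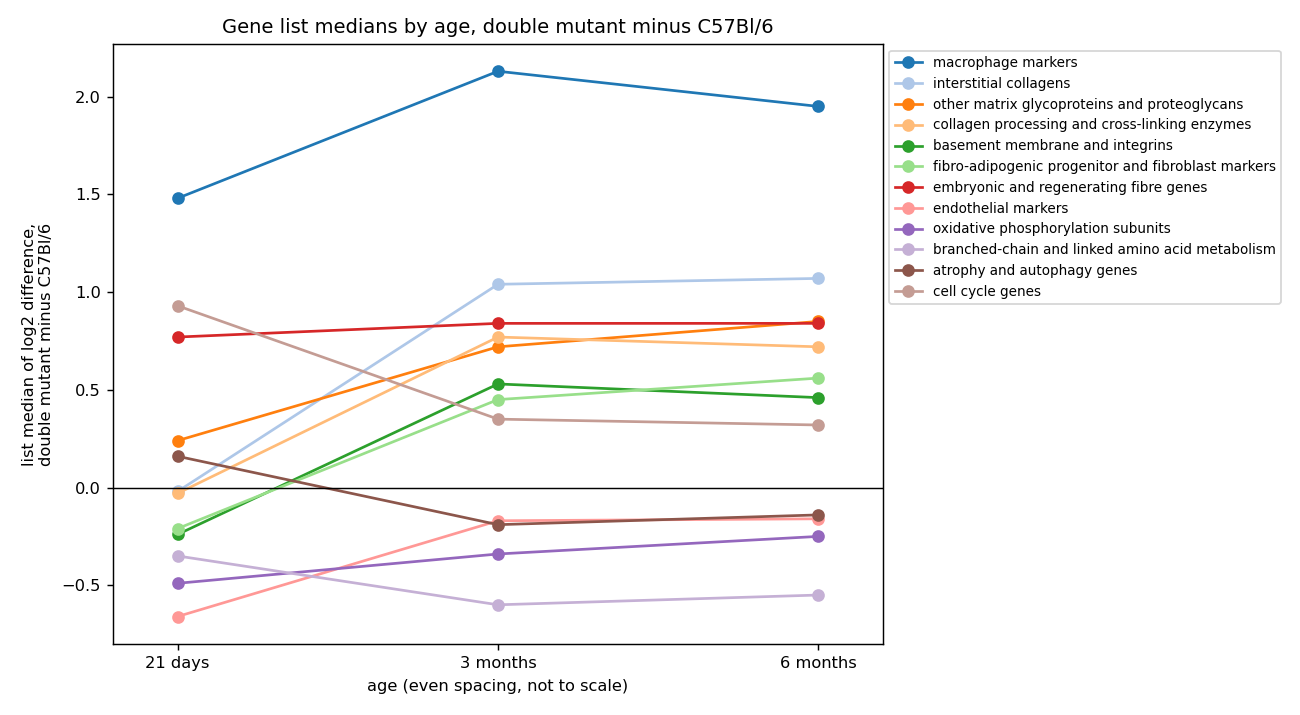
Median log2 difference, double mutant minus C57Bl/6, of 12 gene lists at 21 days, 3 months and 6 months, with each difference taken within its age and ages spaced evenly. Interstitial collagens rise from -0.02 to 1.04 between 21 days and 3 months and stand at 1.07 at 6 months; macrophage markers are highest at each age (1.48, 2.13 and 1.95).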

How the data were processed

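Total RNA of powdered calf muscle was hybridised to Affymetrix Mouse Gene 1.0 ST arrays, 1 per animal, per the labels. The authors summarised the arrays with RMA in Affymetrix Expression Console, per the submitters' processing notes, and the deposited values are log2 expression; the labels name no version. Values were used as deposited. Arrays of each age have their own level (means of 6.78 to 6.81, 7.19 to 7.27 and 7.32 to 7.37 at 21 days, 3 months and 6 months), so differences were taken within an age. The number of arrays limits the precision.

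Of 35556 probe sets, 21789 carry 1 gene symbol, 1621 several and 12146 none; only the first were used. For 999 genes with several probe sets the one with the highest mean over the 60 arrays was kept, which left 19938 genes. No low-value filter was set. RMA shrinks differences of dim probe sets, so small values there understate change.

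limma 3.58.1 (R 4.3.3) fitted 12 group means to the 60 arrays (48 residual degrees of freedom), with eBayes and Benjamini-Hochberg adjustment per comparison. The 50 lists hold 1028 genes, 958 of them measured. The comparison, its members and the lists were chosen with earlier results of these data known. Genes named are Dmd, Utrn, Dag1, and the 12 largest rises and 12 largest falls among stable genes whose groups did not overlap. Up to 4 called members of each list and the 6 largest in each direction of the other comparisons were added. Members that were not called, and those stated to be chosen after their values were seen, are named as well. Arrays counted as marked had a marrow, lymph node or skin marker mean over 2 units above the median of their age, or Xist above 8 (14 and 11 of 60). Alternatives were marker covariates, the compared groups only, a mean of at least 6, array medians subtracted, all probe sets averaged, array weights, a variance trend, marked arrays left out and each array left out. The fit was tested on 20 simulated data sets of 19938 genes. These had independent normal noise and changes in far fewer genes than were called in the deposited data. The fit recovered 75.5% of changes of 0.5, 96.6% of 1 and 99.4% of 2, and 4.84% of its calls were false. Whether these rates hold for the deposited arrays, some of which were marked, was not tested. Tables and plots used Python 3.11.15, pandas 2.3.3 and matplotlib 3.10.9.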

Additional observations from a re-analysis of the deposited data

Results flagged for a closer look

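Arrays whose highest or lowest value stood apart from the other 4 of their group by Dixon's test were found in 21 of 154 groups of 5 tested; chance gives about 1 in 20. In C57Bl/6 replicate 3 the value was high for Alas2 (10.65), Ltf (11.28) and for the list means of chemokine receptors and myeloid growth factors (7.90), antigen presentation (9.42), T and NK cells (6.95), B cell and lymph node (7.85), marrow neutrophil (10.97), erythroid (9.64), bone (7.40), cartilage (7.63), cell cycle (9.06) and iron handling and antioxidant genes (10.29). In the same array the means of smooth muscle and pericyte markers (9.30) and of satellite cell and myogenic regulators (8.66) were low. C57Bl/6 replicate 5 was low for Neto2 (6.89) and for the mean of Xist and Y-linked genes (6.49). In the double mutant, replicate 1 was low for Gpnmb (11.14) and high for the mean of secreted products of fibres (8.16), replicate 4 was low for Myh3 (9.64) and high for Timp1 (11.25), and replicate 5 was high for Nos1 (7.90).

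The difference between double mutant and C57Bl/6 was compared between 3 months and 21 days, by the test of the difference itself. It passed for 14 of 27 genes: the 12 leading rises, the 12 leading falls, Dmd, Utrn and Dag1. Over all genes 9.78% had the higher difference at 3 months and 5.7% the lower. The leading genes were chosen for large differences at 3 months, which enter this test, so the count and its directions are a description only. The difference was higher at 3 months for Mmp12 (2.81), Ms4a7 (1.78), Ccl8 (1.75), Pcbd1 (1.44) and C3ar1 (1.35). It was lower for Ngp (-6.74), Ibsp (-4.63), Ltf (-4.09), Nos1 (-2.19), Ostn (-2.07), Padi2 (-1.40), Neto2 (-1.04), Slc38a3 (-0.99) and Hs3st5 (-0.89).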

How the results depend on the processing

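Of 178 named genes 155 were called under every alternative, and of 3559 values 3466 kept direction and call, 87 lost the call and 6 turned sign, all of Dag1 (covariates -0.09, medians subtracted -0.04, other-tissue arrays left out -0.03, array weights -0.04, without C57Bl/6 replicate 3 -0.03, without double mutant replicate 1 -0.01; leaving out 1 array gave -0.03 to 0.07). The 178 are Dmd, Utrn, Dag1, the leading rises and falls, and up to 4 called members of each list. Other genes named in the text, such as Pax7 and Stat2, are not counted. The leading rises and falls were chosen as stable, so their agreement in the fits that define stable was fixed and adds to these counts. Without C57Bl/6 replicate 3 the calls of Car1 (-1.54), Epb42 (-0.90), S100a8 (-2.49), S100a9 (-2.29), Slc4a1 (-1.72) and Omd (-0.68) were lost. The main count was 5997, 9236 with array weights and 5262 to 6166 leaving out 1 array. Against Dmdmdx 402 genes passed, 143 with only the compared groups, 205 without other-tissue arrays, 150 without high-Xist arrays, 82 without both (chosen after seeing the data), 1382 with array weights and 206 to 441 leaving out 1 array. Leaving out Dmdmdx replicate 5 gave 206, and double mutant replicates 2, 3 and 4 gave 264, 249 and 254. Against Largemyd 227 passed, 504 with covariates, 1327 with only the compared groups, 615 without other-tissue arrays, 359 without high-Xist arrays, 525 without both, 2700 with array weights and 103 to 176 leaving out 1 array. Largemyd replicates 2 and 5 gave 151 and 136, and double mutant replicates 3 and 4 gave 119 and 103. The difference from 21 days passed for 3086 genes, 5269 with array weights and 2440 to 3620 leaving out 1 array. The cause was not tested. No paired analysis was possible because the labels give animal codes and no shared replicate numbers. Changes near background signal are limited by the arrays.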

Other observations

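Of the 297 miRNA genes tested, 40 lie in the region from Dlk1 to Dio3. Outside that region 18 miRNA genes passed the test at 3 months (limma), 5 of them higher in the double mutant and 13 lower. Among all genes 14.6% rose and 15.5% fell, so miRNA genes passed less often than genes in general. The 13 falls were between 0.17 and 0.55 in size on the log2 scale, and none was stable. Mir144 fell by 0.19 and Mir451a by 0.17; both are known as miRNAs of red cell precursors, whose markers were also lower in the double mutant. Mir692-1 was at 8.35 to 9.11 in C57Bl/6 and 9.44 to 9.99 in the double mutant (1.14 ± 0.17), and Mirlet7c-1 rose by 0.57 ± 0.17. These were the stable rises outside the region. The probe sets read precursors, so these are not levels of mature miRNAs.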
